A study of Mus musculus with 10 samples.

Results

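Imprinted genes are expressed mainly from the copy inherited from 1 parent. The set described here has 10 members, taken by their symbols from a table of 23234 gene symbols in mouse ovarian follicle cells, and all 10 were found in it. In most tissues H19, Igf2r, Grb10, Meg3 and Cdkn1c are known for expression from the maternal copy, and Igf2, Peg3, Mest, Plagl1 and Ndn for expression from the paternal copy. The values do not separate the parental copies, so every level below is the sum of both.

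The table came from 10 RNA-seq libraries, in FPKM, a fragment number scaled for transcript length and for how many fragments of that library mapped. Cumulus-oocyte complexes (COC), which hold an oocyte and the cumulus cells around it, came from 3-week mice given the gonadotropin PMSG, with 1 library from BDF1 mice (the cross of C57BL/6 and DBA/2) and 1 from DBA/2 mice. Mural granulosa cells, the layers along the wall of the follicle, were from 2-month C57BL/6 mice (n = 2). Cumulus cells came from C57BL/6 mice aged 10 months (n = 3) and 2 months (n = 3). The mural RNA is described as coming from gonadotropin-primed mice, and the protocol names a medium that contained the phosphodiesterase inhibitor milrinone. Neither priming of the cumulus donors nor time in that medium is given in the sources used here, and cell type and a possible difference in priming cannot be told apart. COC differ from the C57BL/6 libraries in strain, age and cell content together. Whether COC and cumulus cells also differ in priming is not known. Whether replicates are separate animals is not in the labels, so the p-values cover the spread of these libraries alone, which may be technical.

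Libraries labelled cumulus also held transcripts that mark other cells. The 12 oocyte markers summed to 190, 4.43 and 998 FPKM in cumulus replicates 1, 2 and 3 of 2 months, and to 251, 139.7 and 316 FPKM in those of 10 months. The 6 mural markers summed to 52.0, 320.3 and 965 FPKM in replicates 1, 2 and 3 of 10 months, against 35.8 to 57.3 FPKM at 2 months, so replicate 3 of 10 months stood apart, as did replicate 3 of 2 months in oocyte markers. For members, and for listed genes that passed in either comparison, results are given without these libraries where that ends or makes a call.

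Imprinting is set in the germ line: DNA methylation laid down in the oocyte or in the sperm marks certain regions, and proteins such as ZFP57 and TRIM28 keep that mark in the embryo while the rest of the genome loses it. Many imprinted genes act on growth. IGF2 drives it, IGF2R removes IGF2 from the cell surface, GRB10 damps insulin and IGF receptor signalling, and CDKN1C (p57) inhibits cyclin-dependent kinases. In growing oocytes the maternal mark is laid down on genes such as Mest, Peg3 and Plagl1, and the surrounding granulosa cells keep the marks of somatic cells.

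Promoters of 4 members are shown because the comparisons below turn on them: Ndn and Plagl1 differed between mural and cumulus cells, and Mest and Peg3 stood highest in COC. Each runs from 250 bases before to 50 bases after a RefSeq transcript start (GRCm38.p6), along the gene's strand. Capitals mark the hexamer TGCCGC, here read on the other strand as GCGGCA, which ZFP57 is known to bind when it is methylated.
Plagl1, chr10:13090582-13090881, plus strand: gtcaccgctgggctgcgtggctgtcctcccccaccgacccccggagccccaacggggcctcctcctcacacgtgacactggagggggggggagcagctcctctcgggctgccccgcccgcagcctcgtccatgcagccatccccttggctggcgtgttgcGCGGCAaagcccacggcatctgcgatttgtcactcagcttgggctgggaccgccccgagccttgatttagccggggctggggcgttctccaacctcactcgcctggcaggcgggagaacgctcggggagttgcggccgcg
Ndn, chr7:62348027-62348326, plus strand: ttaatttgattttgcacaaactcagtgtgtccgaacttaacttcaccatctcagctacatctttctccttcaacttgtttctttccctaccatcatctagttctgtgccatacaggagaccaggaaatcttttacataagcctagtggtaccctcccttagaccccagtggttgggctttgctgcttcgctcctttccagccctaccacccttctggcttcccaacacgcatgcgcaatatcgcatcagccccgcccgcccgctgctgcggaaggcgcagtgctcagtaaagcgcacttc
Mest, chr6:30737800-30738099, plus strand: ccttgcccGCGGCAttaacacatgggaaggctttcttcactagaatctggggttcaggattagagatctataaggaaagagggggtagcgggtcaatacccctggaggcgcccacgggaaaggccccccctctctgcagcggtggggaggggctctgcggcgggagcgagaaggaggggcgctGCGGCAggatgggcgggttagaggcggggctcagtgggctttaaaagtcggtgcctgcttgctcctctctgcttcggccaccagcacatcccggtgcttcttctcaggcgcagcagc
Peg3, chr7:6730370-6730669, minus strand: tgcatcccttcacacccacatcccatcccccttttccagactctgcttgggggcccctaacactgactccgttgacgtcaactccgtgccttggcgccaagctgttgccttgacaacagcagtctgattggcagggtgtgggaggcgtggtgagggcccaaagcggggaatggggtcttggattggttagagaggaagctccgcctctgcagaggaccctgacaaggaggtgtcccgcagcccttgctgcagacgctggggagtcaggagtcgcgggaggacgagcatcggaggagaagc
The Mest window shown held 2 hexamers, the Plagl1 window held 1, and the Ndn and Peg3 windows held 0. Mest had further windows. That at chr6:30733256-30733555 held 0 hexamers, with an observed over expected CpG of 0.327. That at chr6:30737803-30738102 overlapped the one shown and held 2. GC content was 70.7% for Plagl1, 51.0% for Ndn, 62.7% for Mest and 61.3% for Peg3, beside a median of 52.7% over all 32851 promoters. Observed over expected CpG was 0.696 for Plagl1, 0.623 for Ndn, 0.590 for Mest and 0.463 for Peg3, beside a median of 0.384. RefSeq gave 15 promoters for 8 of the 10 members, some of them a few bases apart. The hexamer was found on either strand in 6 of the 15, among them both overlapping Mest windows, against 11.6% of all promoters. Promoters were not matched for GC content, so these shares are a description. Methylation was not measured here, and a match to the letters is not a bound site.

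Mean levels of the members ranged from above 32.0% of all symbols (Igf2) to above 97.9% (Meg3). Meg3, a long noncoding RNA, averaged 157.9 FPKM over the 10 libraries. Plagl1, a zinc finger transcription factor that restrains growth, averaged 34.9 FPKM, and Igf2r averaged 26.0 FPKM. Ndn (necdin, a MAGE family protein known as a growth suppressor in neurons) averaged 7.29 FPKM and Mest, a protein with an alpha/beta hydrolase fold, 7.03 FPKM. Peg3, a zinc finger protein, averaged 3.03 FPKM, Cdkn1c 2.22 FPKM and Grb10 1.32 FPKM.

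H19 and Igf2, neighbours that share a control region, were the lowest members, at 0.168 and 0.149 FPKM on average. H19, a long noncoding RNA, stood at 0.331 FPKM in the BDF1 COC and 0 in the DBA/2 COC, at 0.556 and 0.235 FPKM in mural cells, at 0, 0.0754 and 0.306 FPKM in cumulus cells at 10 months, and at 0, 0.172 and 0 FPKM at 2 months. Igf2 stood at 0 FPKM in the BDF1 COC and 0.466 FPKM in the DBA/2 COC, at 0.0959 and 0.444 FPKM in mural cells, at 0, 0.0521 and 0.384 FPKM at 10 months, and at 0, 0 and 0.0456 FPKM at 2 months. Each was listed at 0 in 4 of 10 libraries, and neither reached the mean of 1 FPKM over the 8 C57BL/6 libraries that admitted a gene to the tests. The other 8 members were tested.

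The order of the group means differed between members. Meg3 was highest in cumulus cells at 2 months, then at 10 months, then in mural cells, with overlap between neighbours, and COC stood below these without overlap. Plagl1 was highest in cumulus cells at 10 months, then at 2 months, with COC inside the spread at 2 months and mural cells last. Ndn was highest in mural cells, with no overlap with the next group, cumulus cells at 10 months. Mest and Peg3 were highest in COC, and their 3 C57BL/6 groups overlapped. Igf2r was the most even member, between 22.3 and 30.8 FPKM in all 10 libraries.

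**Figure D1:**
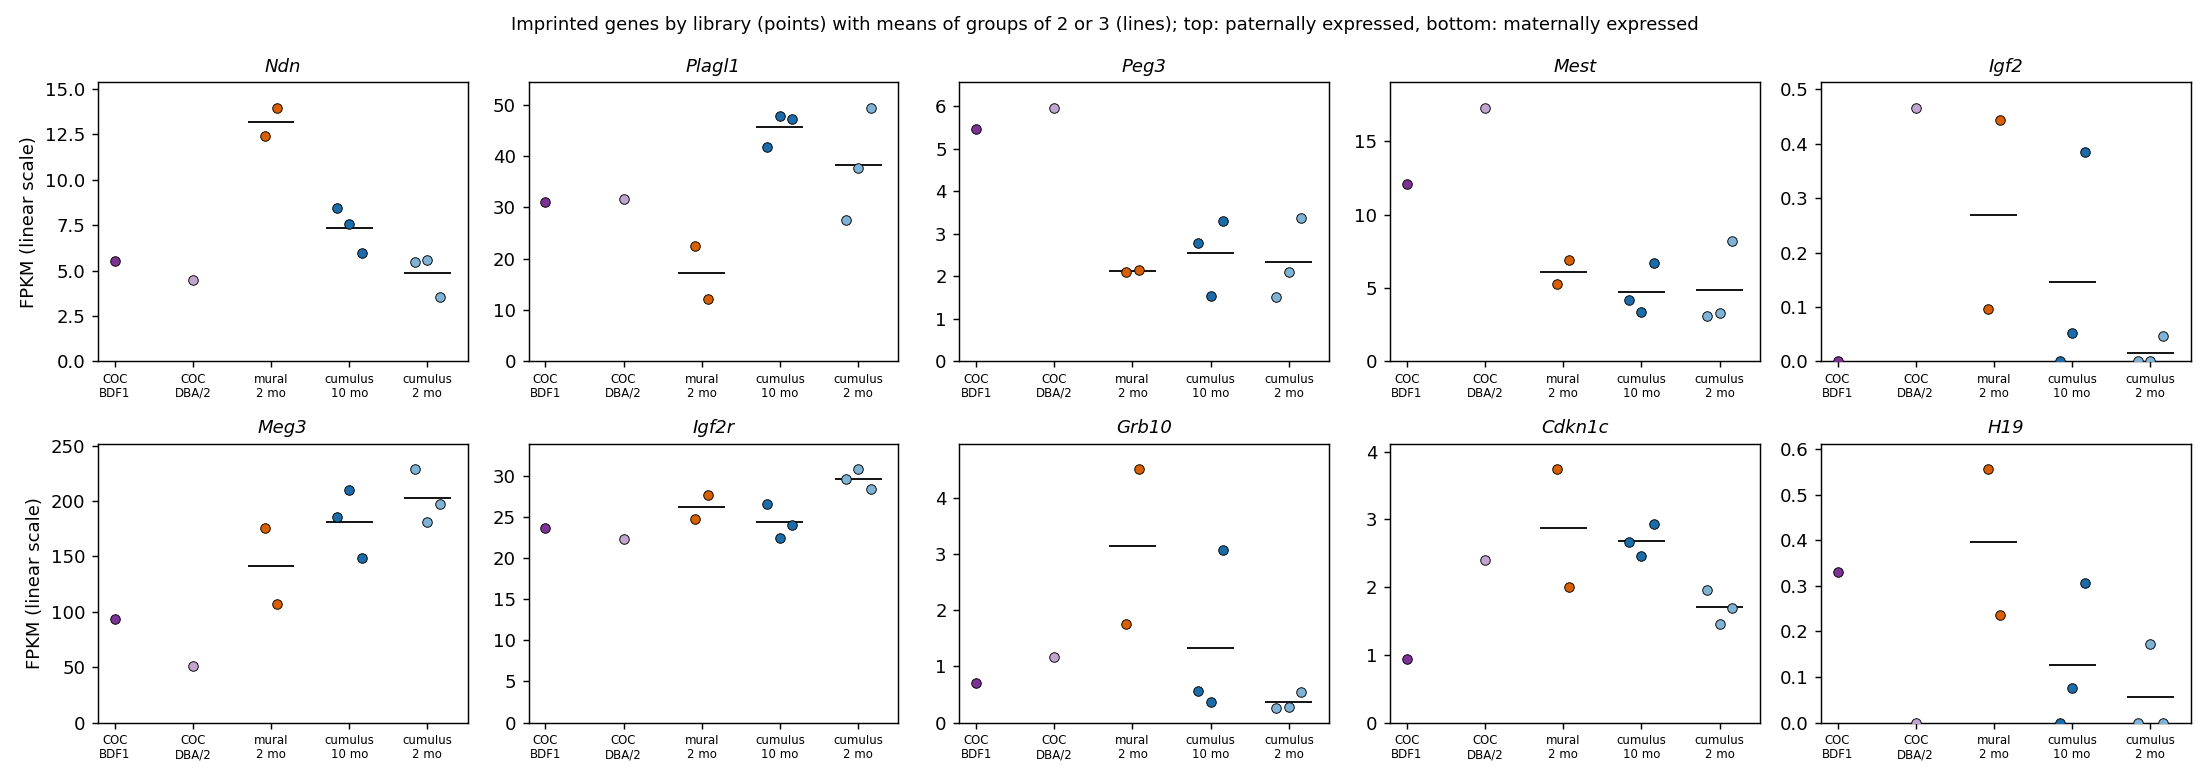
FPKM (linear axis) of the 10 imprinted genes in each library, by group, with points for libraries and lines for the means of groups of 2 or 3. Ndn is highest in the 2 mural libraries, Mest and Peg3 are highest in both COC, and H19 and Igf2 stay under 0.6 FPKM in all 10 libraries.

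In mural cells Ndn was higher and Plagl1 lower than in cumulus cells of the same age, and the other 6 tested members did not pass. Ndn stood at 12.4 and 13.97 FPKM in mural cells, against 5.45, 5.58 and 3.52 FPKM in cumulus cells at 2 months. The groups did not overlap, and the mural values also lay above the 5.99 to 8.46 FPKM of 10-month cumulus cells and the 5.52 and 4.50 FPKM of COC. Ndn averaged 13.2 ± 1.12 FPKM in mural cells and 4.85 ± 1.15 FPKM in cumulus cells (SD over 2 and 3 libraries), a log2 fold change of 1.30 ± 0.22 (SE) on the log2(FPKM + 1) scale (limma, adjusted p = 0.00886). That call was lost without mural replicate 2 (log2 fold change 1.21, adjusted p = 0.0900). In each fit without 1 mural library, a single mural library remains and is assumed to vary like the other groups. In bulk samples such as these, a higher share of cells of a type and more RNA per cell cannot be told apart.

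Plagl1 stood at 22.4 and 12.2 FPKM in mural cells, against 27.5, 37.7 and 49.4 FPKM in cumulus cells at 2 months. The mural libraries were the lowest of all 10, below the 31.1 and 31.7 FPKM of COC and the 41.9 to 47.8 FPKM of cumulus cells at 10 months. Plagl1 averaged 17.3 ± 7.19 FPKM in mural cells and 38.2 ± 11.0 FPKM in cumulus cells (SD over 2 and 3 libraries), with a log2 fold change of -1.12 ± 0.30 (SE, limma adjusted p = 0.0340). Plagl1 passed under 10 of 19 other settings, and Ndn under 18. Without mural replicate 2 Plagl1 had a log2 fold change of -0.71 (adjusted p = 0.235), and it also missed the threshold without 2-month cumulus replicate 2 (0.0852) or 3 (0.0727).

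Grb10 stood at 1.76 and 4.52 FPKM in mural cells, against 0.260, 0.272 and 0.554 FPKM in cumulus cells at 2 months. The groups did not overlap, but the mural values were far apart and the difference did not pass (log2 fold change 1.53 ± 0.52 SE, limma adjusted p = 0.0717). Cumulus replicate 3 at 10 months held 3.07 FPKM, against 0.557 and 0.359 FPKM in its replicates 1 and 2. Without that library, which enters the shared spread, Grb10 had an adjusted p of 0.0204 in the mural comparison.

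Meg3 stood at 176 and 107 FPKM in mural cells, against 229, 181 and 197 FPKM in cumulus cells at 2 months, with a log2 fold change of -0.55 ± 0.25 (SE, limma adjusted p = 0.148). Cdkn1c stood at 3.74 and 2.00 FPKM against 1.95, 1.46 and 1.69 FPKM, with a log2 fold change of 0.49 ± 0.24 (adjusted p = 0.189). Neither group pair overlapped, and neither difference passed. Igf2r stood at 24.7 and 27.7 FPKM in mural cells, against 29.6, 30.8 and 28.4 FPKM in cumulus cells, with a log2 fold change of -0.17 and a 95% interval of -0.47 to 0.13. Mest (log2 fold change 0.37, adjusted p = 0.540) and Peg3 (-0.05, adjusted p = 0.921) overlapped between the groups.

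Among the 8 tested members 1 passed as higher and 1 as lower, beside 9.69% and 11.2% of all 12412 tested genes. The groups did not overlap for 6 members (3 higher, 3 lower), beside 57.6% of all tested genes (25.6% higher, 32.0% lower). The members' median log2 fold change was 0.16 and that of all genes -0.08. The members' shares of calls are thus close to those of the table as a whole. Their share without overlap was larger, which with 8 genes is given as a description. Without mural replicate 2, 96 genes and 0 members passed. Rescaling each library to the same summed FPKM moved the median of all genes to 0.14 and made 69.5% of calls higher ones, in place of 46.3%. Under it Igf2r and Peg3 had positive differences, Ndn still passed, and Plagl1 had a log2 fold change of -0.87 (adjusted p = 0.0882).

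Markers of other cells moved with this contrast. The summed FPKM of 10 theca and stroma markers was 107 and 169 in mural cells, against 7.58 to 9.04 in 2-month cumulus cells (6 of 8 tested higher). That of 8 endothelial markers was 27.2 and 70.7, against 1.73 to 5.35 (5 of 6 tested higher), and that of 9 immune markers was 21.3 and 60.3, against 4.80 to 6.52 (2 of 7 tested higher). The 7 erythroid markers summed to 140.8 and 82.5 FPKM in mural cells, against 13.3 to 21.4 FPKM in 2-month cumulus cells (of 5 tested, 1 higher and 1 lower). Few genes carried some of these erythroid sums. In 2-month cumulus replicate 3, 6 of the 7 were at 0. Their median log2(FPKM + 1) was 0.159 in mural replicate 2, against 4.19 in mural replicate 1. The part of these cells in the Ndn, Plagl1 and Grb10 values was not tested. Among the cumulus libraries at 10 months, replicate 3 had the highest sum of every marker list except that of granulosa cells. Theca and stroma markers summed to 51.4 there, against 23.5 and 30.0, and endothelial markers to 24.7, against 4.54 and 6.71. Replicate 3 had the lowest Ndn and the highest Grb10 of the 3, and a link between any list and either gene was not tested. The 6 mural markers, among them the luteinizing hormone receptor gene Lhcgr, summed to 1750 and 3418 FPKM in mural cells. The 10 granulosa markers summed to 13360 and 12330 FPKM in mural cells, against 4994 to 7929 FPKM in 2-month cumulus cells, and 0 of them were at 0 in any library.

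**Figure D2:**
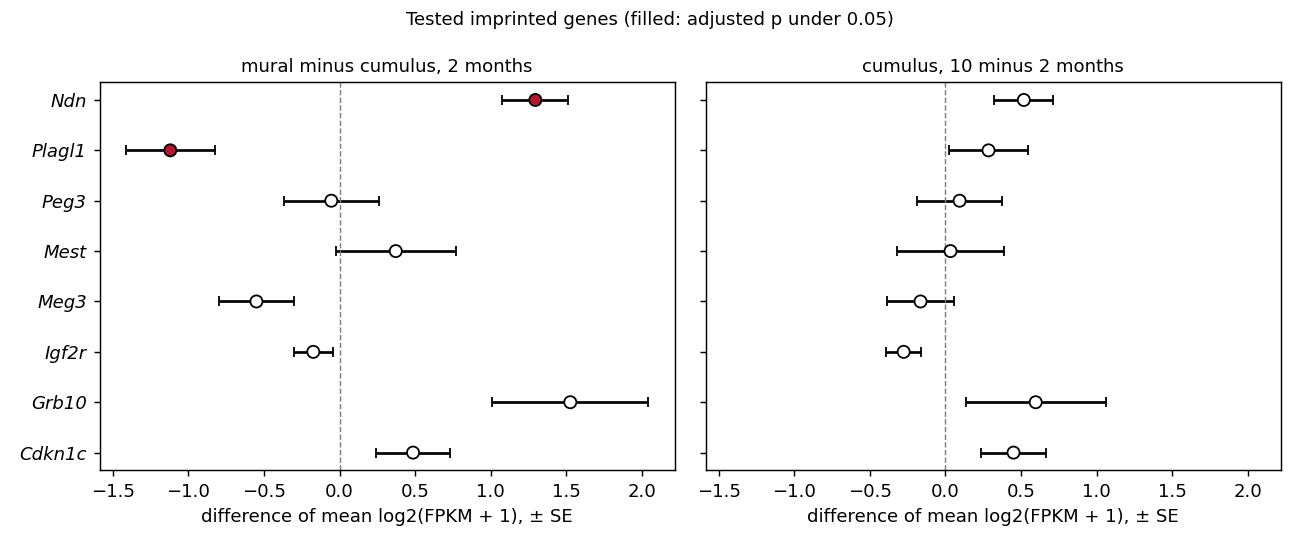
Difference of mean log2(FPKM + 1) with its SE for the 8 tested members, mural minus cumulus cells at 2 months on the left and 10-month minus 2-month cumulus cells on the right. Filled points passed an adjusted p of 0.05: Ndn at 1.30 and Plagl1 at -1.12 on the left, and 0 genes on the right.

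Cumulus cells at 10 months and at 2 months did not differ in any member past the threshold, nor did they in any of the 12412 genes (0%). The smallest adjusted p in limma was 0.0869, 1727 genes (13.9%) had an unadjusted p under 0.05, and Igf2r and Ndn were the 2 members among them. Other settings called 0 to 280 genes, the most without replicate 2 of 10 months, and 0 members in each.

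The groups did not overlap for 3 of 8 members, beside 17.8% of all genes. For 2 the 10-month values were higher (8.93% of all genes) and for 1 lower (8.88%). Igf2r stood at 26.6, 22.4 and 24.0 FPKM at 10 months, against 29.6, 30.8 and 28.4 FPKM at 2 months, a log2 fold change of -0.28 with a 95% interval of -0.55 to -0.01 (adjusted p = 0.352). Ndn stood at 8.46, 7.54 and 5.99 FPKM at 10 months, against 5.45, 5.58 and 3.52 FPKM at 2 months, a log2 fold change of 0.52 with an interval of 0.06 to 0.97 (adjusted p = 0.311). Cdkn1c stood at 2.67, 2.46 and 2.93 FPKM at 10 months, against 1.95, 1.46 and 1.69 FPKM at 2 months, with a log2 fold change of 0.45 and an interval of -0.05 to 0.95 (adjusted p = 0.403). These intervals are per gene and not adjusted over genes.

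The other members overlapped between ages. Meg3 averaged 181 ± 31.1 FPKM at 10 months and 202 ± 24.3 FPKM at 2 months (SD over 3 libraries each), with a log2 fold change of -0.16 and an interval of -0.68 to 0.35. Plagl1 averaged 45.6 ± 3.26 FPKM and 38.2 ± 11.0 FPKM (log2 fold change 0.28, interval -0.33 to 0.90). Peg3 averaged 2.54 ± 0.912 FPKM and 2.33 ± 0.955 FPKM, and Mest 4.74 ± 1.75 FPKM and 4.86 ± 2.90 FPKM. The immune markers summed to 24.5, 63.3 and 81.3 FPKM at 10 months, against 4.80 to 6.52 FPKM at 2 months. The 8 epithelial markers summed to 63.9 to 128.8 FPKM at 10 months, against 34.5 to 41.9 FPKM at 2 months, and the theca and stroma markers to 23.5 to 51.4 FPKM, against 7.58 to 9.04 FPKM. In 10-month replicate 1, 4 of the 8 epithelial markers were at 0, as were 3 or 4 in each 2-month library. Their median log2(FPKM + 1) in that replicate was 0.110, against 0.189 to 0.695 at 2 months. The part of these cells in the age values was not tested.

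COC had more Mest and Peg3, and less Meg3, than any C57BL/6 library. Mest stood at 12.1 FPKM in the BDF1 COC and 17.3 FPKM in the DBA/2 COC, against 3.05 to 8.20 FPKM in the 8 C57BL/6 libraries. Peg3 stood at 5.47 and 5.96 FPKM, against 1.51 to 3.37 FPKM. Meg3 stood at 93.7 FPKM in the BDF1 COC and 50.8 FPKM in the DBA/2 COC, against 107 to 229 FPKM. With 1 library per strain there is no test. Both COC lay above all 8 C57BL/6 libraries for 2 of 8 members, beside 24.4% of 12713 genes, and below them for 1 of 8, beside 7.82%. Counts of 2 and 1 among 8 members are close to these shares.

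Mest and Peg3 were highest in COC, the libraries with the highest oocyte marker sums. The order was not kept within COC or among the other libraries. The BDF1 COC, with the higher sum, held less Mest and Peg3 than the DBA/2 COC. The 12 oocyte markers summed to 2807 and 2711 FPKM in COC, far above the sums in cumulus cells, and to 127 and 18.6 FPKM in mural replicates 1 and 2. In replicate 3 at 2 months Mest stood at 8.20 FPKM, against 3.05 and 3.32 FPKM in replicates 1 and 2, and Peg3 at 3.37 FPKM, against 1.51 and 2.097 FPKM. At 10 months too, Mest and Peg3 were highest in the library with the highest oocyte sum, at 6.69 and 3.30 FPKM in replicate 3. At 2 months, replicate 1, with an oocyte sum of 190, held less Mest and Peg3 than replicate 2, with a sum of 4.43. Mest stood at 5.29 FPKM in mural replicate 1, with a sum of 127, and at 6.88 FPKM in mural replicate 2, with a sum of 18.6. The part of oocyte RNA in the values was not tested. Without replicate 3 of both cumulus groups, an alternative chosen after seeing the data, Mest was higher in mural than in cumulus cells (log2 fold change 0.75, limma adjusted p = 0.0462), Grb10 passed too (adjusted p = 0.0299), and Plagl1 did not (0.0738).

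**Figure D3:**
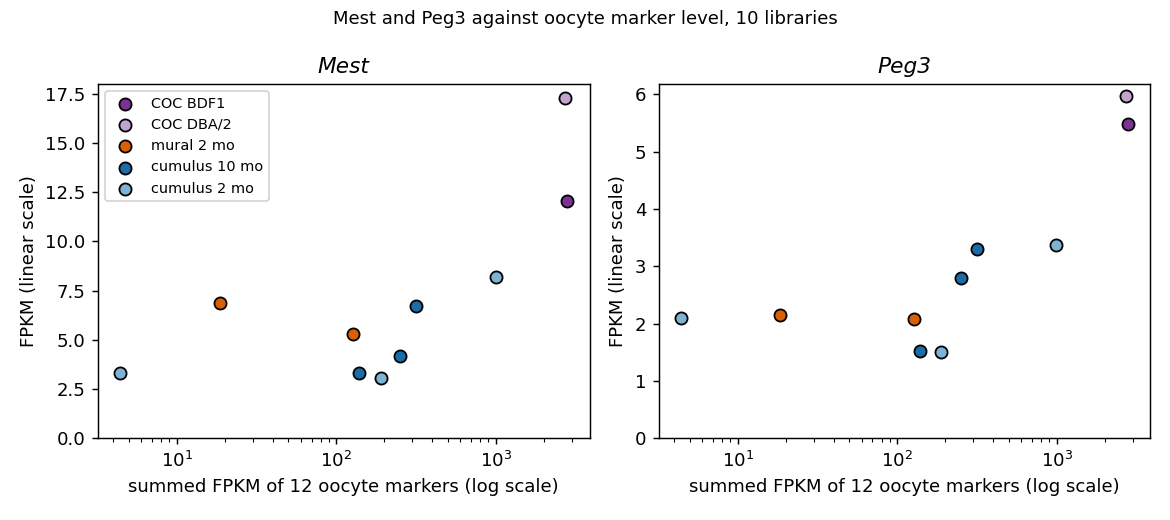
FPKM of Mest and Peg3 (linear axis) against the summed FPKM of 12 oocyte markers (log axis) in the 10 libraries, coloured by group. Both COC lie at the upper right, and cumulus replicate 3 at 2 months, with a sum of 998, has the highest Mest (8.20) and Peg3 (3.37) of the C57BL/6 libraries.

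Between the strains, 0 of 8 members differed by at least 2-fold on the log2(FPKM + 1) scale, beside 6.17% of all genes. Meg3 was the furthest apart, with a log2 ratio of BDF1 over DBA/2 of 0.87, followed by Cdkn1c at -0.81 (0.939 FPKM in BDF1 and 2.39 FPKM in DBA/2) and Mest at -0.49. Peg3, Plagl1, Igf2r and Ndn lay within 0.25 of 0. With a pseudocount of 0.1, 1 member, Cdkn1c, was over 2-fold apart.

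Meg3 lies in an imprinted cluster on mouse chromosome 12 with the noncoding RNAs Rian and Mirg, which are also maternally expressed, and with the paternally expressed Dlk1, which encodes a Notch-like membrane protein. Rian stood at 59.1 FPKM in the BDF1 COC and 23.9 FPKM in the DBA/2 COC, at 65.95 ± 13.2 FPKM in mural cells, and at 87.3 ± 15.8 and 101 ± 7.96 FPKM in cumulus cells at 10 and 2 months (SD, n = 2, 3 and 3). Meg3 and Rian were both lowest in the DBA/2 COC. Across the 10 libraries Meg3 correlated with Rian at r = 0.969 and with Mirg at r = 0.923 on log2(FPKM + 1), as a description over libraries that share groups. Dlk1 stood at 0.355 ± 0.330 FPKM in mural cells, against 3.49 ± 1.16 FPKM in cumulus cells at 2 months (log2 fold change -1.72, adjusted p = 0.0586), and at 0.207 and 0.208 FPKM in COC. In the mural comparison Rian had a log2 fold change of -0.63 (adjusted p = 0.0578) and Mirg of -0.52 (adjusted p = 0.240). None of the 4 passed, and Rian, Mirg and Dlk1 were not followed under the other settings.

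**Figure D4:**
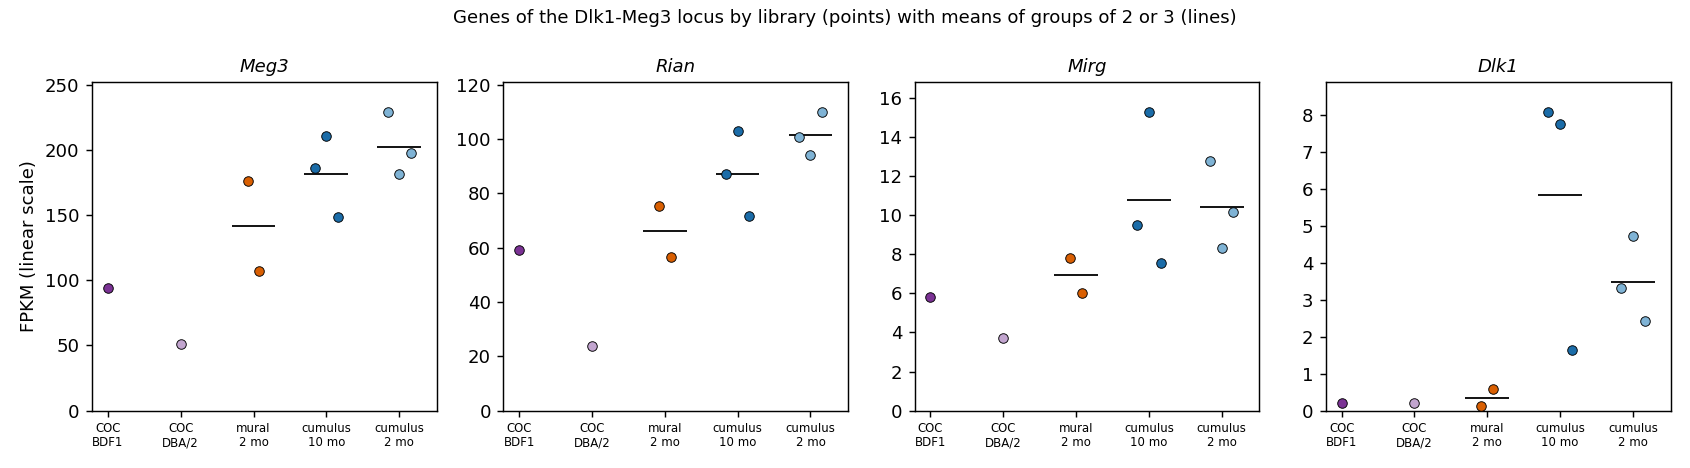
FPKM (linear axes) of Meg3, Rian, Mirg and Dlk1 in each library by group, with points for libraries and lines for the means of groups of 2 or 3. Meg3 and Rian are lowest in the DBA/2 COC, at 50.8 and 23.9 FPKM, and Dlk1 is under 0.6 FPKM in COC and mural cells.

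The partners of the other members were read from the RefSeq order of genes (GRCm38.p6), since an annotation of the build of the files, mm9, was not used here. Airn, the paternally expressed antisense RNA of Igf2r, stood at 2.46 and 0.838 FPKM in the BDF1 and DBA/2 COC, at 5.59 ± 0.800 FPKM in mural cells, and at 4.38 ± 1.06 and 5.30 ± 0.415 FPKM in cumulus cells at 10 and 2 months (SD, n = 2, 3 and 3). Airn overlaps Igf2r and Copg2 overlaps Mest, so without known strand reads can be assigned to either gene of a pair. Airn lay below all 8 C57BL/6 libraries in both COC. Igf2r, at 23.7 and 22.3 FPKM in the BDF1 and DBA/2 COC, lay below them only in the DBA/2 COC, against 22.4 to 30.8 FPKM. Across the 10 libraries the pair correlated at r = 0.577, as a description. Next to Ndn, Magel2 was listed at 0 in both COC, both mural libraries and all 3 cumulus libraries of 2 months, and at no more than 0.0508 FPKM in those of 10 months, and of the 4 imprinted genes listed there only Ndn reached the filter. Osbpl5, in the distal chromosome 7 cluster with Cdkn1c, H19 and Igf2, encodes an oxysterol-binding protein and was lower in mural cells, at 17.2 ± 2.92 against 39.3 ± 7.72 FPKM (log2 fold change -1.14, adjusted p = 0.0128).

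Of 48 further imprinted genes, 29 were tested, and 5 were higher and 3 lower in mural than in cumulus cells, beside 9.69% and 11.2% of all genes. Their median log2 fold change was -0.22. Whether these genes are imprinted in follicle cells was not measured, and the parental copy named for each is as listed. Sgce, Peg10 and Ppp1r9a, neighbours on chromosome 6, were higher. Of the listed genes beside them, Asb4 did not pass (log2 fold change 0.49, limma adjusted p = 0.250), and Calcr was listed at 0 in every library. Sgce, a sarcoglycan, stood at 28.1 ± 5.60 FPKM in mural cells and 8.65 ± 1.64 FPKM in cumulus cells (log2 fold change 1.59, adjusted p = 0.00608). Ppp1r9a (neurabin, an actin-binding partner of protein phosphatase 1) stood at 22.1 ± 2.12 and 4.29 ± 0.242 FPKM (2.13, adjusted p = 0.00608). Peg10, derived from a retrotransposon, stood at 11.96 ± 0.707 and 1.25 ± 0.738 FPKM (2.59, adjusted p = 0.0365), and at 18.4 FPKM in the 10-month cumulus replicate 3.

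Atp10a, a phospholipid flippase, was higher in mural cells (log2 fold change 0.85, adjusted p = 0.0116), as was H13, a signal peptide peptidase (0.53, adjusted p = 0.0254). Besides Osbpl5, Slc38a4, an amino acid transporter, was lower in mural cells, at 1.22 ± 0.435 against 5.65 ± 1.03 FPKM (log2 fold change -1.59, adjusted p = 0.00643), as was the noncoding Peg13 (-0.72, adjusted p = 0.0159). Peg13 missed the threshold after rescaling to the same sum (adjusted p = 0.0666). Peg13 lies within Trappc9, and Mcts2 within H13, so these levels are uncertain without strand. Of the 8, Sgce, Ppp1r9a, Slc38a4 and Osbpl5 passed in each fit without 1 library other than mural replicate 2, and without that library none of Sgce, Ppp1r9a, Peg10, Atp10a, H13, Slc38a4, Osbpl5 and Peg13 passed (adjusted p 0.0552 to 0.191). Without mural replicate 1, Peg10, Atp10a, H13 and Peg13 also missed the threshold, and without single 2-month cumulus libraries Peg10, H13 and Peg13 did. The theca, stroma, endothelial and immune marker sums were higher in mural cells here too, and their part in these values was not tested.

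None of the 29 passed between ages. Those with the smallest p were Copg2, a coatomer subunit (log2 fold change -0.56, adjusted p = 0.229), Asb4 (0.52, adjusted p = 0.399) and Trappc9 (-0.34, adjusted p = 0.436) of the maternally expressed genes, and Peg13 (-0.46, adjusted p = 0.247), Nap1l5 (-0.77, adjusted p = 0.271) and Peg10 (1.60, adjusted p = 0.320) of the paternally expressed ones. Their values did not pass in limma.

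**Figure D5:**
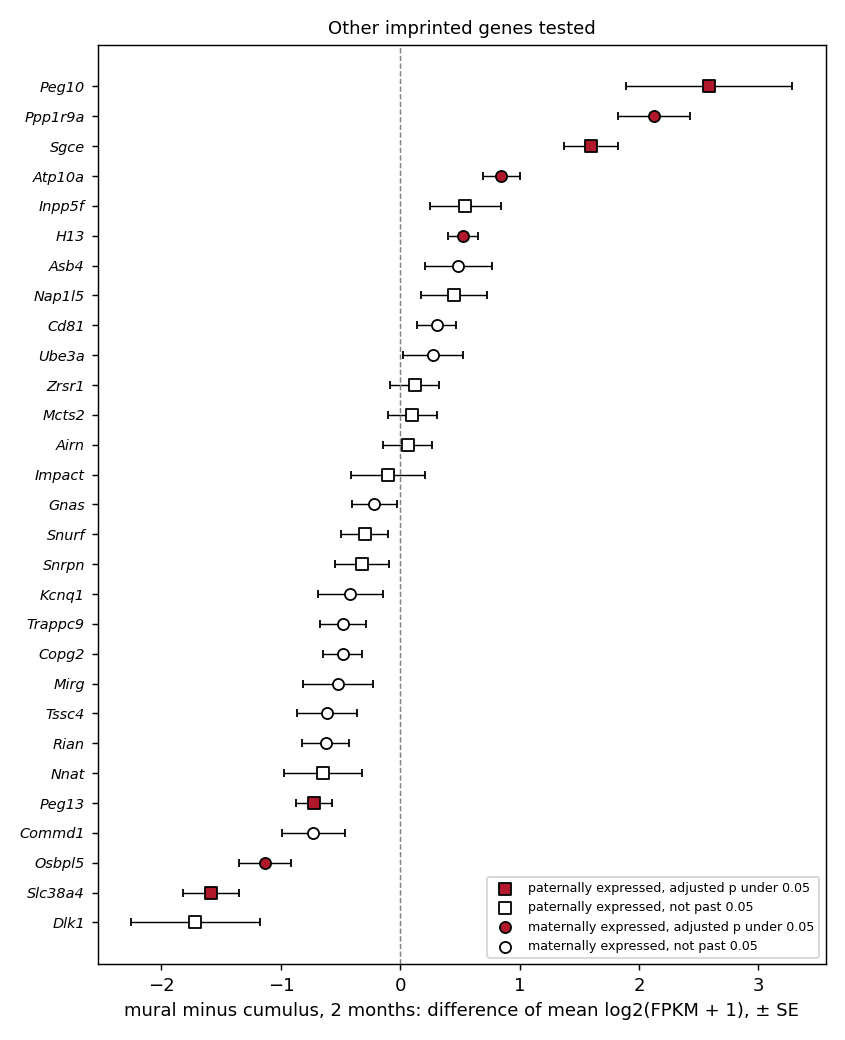
Difference of mean log2(FPKM + 1), mural minus cumulus cells at 2 months, with its SE, for the 29 tested imprinted genes outside the 10 members. Filled symbols passed an adjusted p of 0.05 (5 higher, 3 lower), and Peg10 (2.59) and Dlk1 (-1.72) stand at the ends. Squares are genes listed as paternally and circles as maternally expressed, which was not measured here.

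In COC, 8 of the 29 lay above all 8 C57BL/6 libraries, beside 24.4% of all genes. Snrpn, a spliceosome protein, stood at 15.7 and 16.0 FPKM in the BDF1 and DBA/2 COC, against 3.77 to 6.94 FPKM in C57BL/6 libraries, and Snurf, from the same transcript, at 15.0 and 14.9 FPKM. Ube3a, a ubiquitin ligase, stood at 20.5 and 20.9 FPKM, Commd1 at 92.3 and 86.2 FPKM, Trappc9 at 140.0 and 162 FPKM, Kcnq1 at 6.22 and 4.32 FPKM and Osbpl5 at 49.8 and 49.9 FPKM. Airn and Mirg, 2 of the 29, lay below all 8, beside 7.82% of all genes. Counts of 8 and 2 among 29 are close to these shares. Asb4, part of a ubiquitin ligase, was the furthest apart between strains, at 5.96 FPKM in the BDF1 COC and 21.1 FPKM in the DBA/2 COC, and Rian followed.

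Proteins that keep imprints were also read. Trim28 stood at 109 ± 9.51 FPKM in mural cells and 201 ± 21.2 FPKM in cumulus cells at 2 months (log2 fold change -0.87, limma adjusted p = 0.0265). Ctcf, the insulator protein of the H19 and Igf2 control region, stood at 27.4 ± 1.43 and 41.1 ± 2.72 FPKM (-0.57, adjusted p = 0.0201), and Smchd1, a chromatin protein, at 11.98 ± 0.323 and 19.03 ± 1.64 FPKM (-0.62, adjusted p = 0.0216). These 3 of 8 were lower and 0 were higher, beside 11.2% and 9.69% of all genes. Trim28, Ctcf and Smchd1 all missed the threshold without mural replicate 1, mural replicate 2 or cumulus replicate 2 of 2 months, Trim28 also without cumulus replicate 1 and Smchd1 without replicate 3. Rescaling to the same sum ended the calls of Ctcf (adjusted p = 0.125) and Smchd1 (0.190). Zfp57 stood at 261 and 275 FPKM in the BDF1 and DBA/2 COC and at 18.9, 0.137 and 109.7 FPKM in the 2-month cumulus replicates 1, 2 and 3, the order of their oocyte marker sums. Dppa3, which protects maternal methylation in the zygote, stood at 213 and 214 FPKM in COC and at 19.9, 0 and 102 FPKM in the same libraries. None of the 8 passed between ages, and Ctcf (log2 fold change -0.30, adjusted p = 0.312), Smchd1 (-0.33, 0.323) and Setdb1 (-0.23, 0.496) had the smallest p.

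The growth pathway that Igf2r, Igf2 and Grb10 belong to is given for context. Of 16 listed IGF axis genes 14 were tested, and 8 were higher and 0 lower in mural cells, beside 9.69% and 11.2% of all genes. Insr, the insulin receptor that Grb10 binds, stood at 17.1 ± 0.662 against 5.36 ± 0.616 FPKM (log2 fold change 1.52, adjusted p = 0.00486), and Irs1, its docking protein, at 13.1 ± 0.268 against 6.48 ± 0.444 FPKM (0.92, adjusted p = 0.00891). Grb14, a relative of Grb10, stood at 112 ± 31.3 against 55.0 ± 4.91 FPKM (0.99, adjusted p = 0.0171), and the binding proteins Igfbp2, Igfbp3, Igfbp5, Igfbp6 and Igfbp7 were the other 5. Without mural replicate 2, Insr, Irs1, Grb14, Igfbp2, Igfbp3, Igfbp5, Igfbp6 and Igfbp7 all missed the threshold (adjusted p 0.0552 to 0.288), and Insr, Igfbp6 and Igfbp7 passed in each fit without 1 other library. The higher theca, stroma and endothelial marker sums of mural cells stand beside these values as well, and their part was not tested. Between ages 0 of 14 passed, and for 7 the groups did not overlap, all higher at 10 months, beside 8.93% of all genes. Igfbp6 stood at 4.60, 3.02 and 7.13 FPKM at 10 months, against 0.182, 0 and 0.147 FPKM at 2 months (log2 fold change 2.36, adjusted p = 0.0869). Igfbp7 had a log2 fold change of 3.23 and Grb14 of 1.16 (limma adjusted p = 0.152 for each). Without 10-month replicate 2, Igfbp6 (adjusted p = 0.00928), Grb14 (0.0293) and Igfbp7 (0.0491) passed, as Igfbp6 did with library weights (0.0393). The 10-month libraries also had the higher epithelial, immune, theca and stroma marker sums, whose part was not tested. The epithelial median of 10-month replicate 1 was not higher. Of the relatives of Cdkn1c, Cdkn1b was higher in mural cells (log2 fold change 0.71, adjusted p = 0.0268), a call lost without mural replicate 2 or any 2-month cumulus library, and Cdkn1a did not pass (-0.33, adjusted p = 0.719).

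The genes whose levels followed the 4 most abundant members most closely were found among 8607 genes, by Pearson's r of log2(FPKM + 1) over the 10 libraries. For Meg3 they were Rian (0.969), Cd200 (0.966) and Osgep (0.963). For Plagl1 they were Ero1l (0.945), Nmd3 (0.943) and Rassf1 (0.942). For Igf2r they were Slc26a2 (0.914), Chst11 (0.892) and Nav1 (0.879). For Ndn they included Gusb (0.969), which encodes a lysosomal enzyme, and BC029214 (0.967). With 10 libraries in 5 groups these values follow group differences and are given as a description.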

How the data were processed

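Libraries were grouped by the labels. The authors deposited FPKM values in 1 table. The submitters' processing notes name TopHat2 2.1.0, Cufflinks 2.1.0 and mm9. No source used here gives the annotation, strandedness or read depth, so no interval for counting error is given. Summed FPKM per library was 470377 to 603460, and 11373 to 12637 genes reached 1 FPKM. Spearman correlations between replicates, across genes, were 0.927 to 0.962. The table held 1 repeated header line, which was dropped.

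Analyses used log2(FPKM + 1), a scale that shrinks the fold changes of low genes. The 12412 genes with a mean of at least 1 FPKM over the 8 C57BL/6 libraries entered 1 model with a term per group (limma 3.58.1, R 4.3.3, intensity trend, 5 residual degrees of freedom). Adjusted p-values are two-sided, Benjamini-Hochberg over all tested genes, with a threshold of 0.05. The fit was tested on simulated data. COC were described without a test, over genes with a mean of at least 1 FPKM in 10 libraries. Sequences are from RefSeq (GRCm38.p6).

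All 10 members are named. From further lists, genes that passed are named, up to 8 per contrast, or else the 3 with the smallest p as values. For the 4 most abundant members the 3 most alike genes of at least 5 FPKM are named, of which 1 is not reported here. Members and lists were chosen with earlier results of these data known. Alternatives changed the pseudocount, filter, scaling, trend, weights, block and libraries entered. COC values of other genes and Dlk1, Rian, Mirg, Airn, Magel2 and Igf1 are named as neighbours or after their values were seen.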

Additional observations from a re-analysis of the deposited data

How the results depend on the processing

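The number of genes called between mural and cumulus cells was 2599, and 5425 with library weights. Leaving out 1 library gave 96 to 3251, the lowest without mural replicate 2, 758 without mural replicate 1 and 1208 without cumulus replicate 2 at 2 months. Between ages the count was 0, and 5 with no filter, 69 with library weights, 0 to 280 leaving out 1 library (280 without replicate 2 at 10 months) and 7 without replicate 3 of both cumulus groups, an alternative chosen after seeing the data. Called members in the mural comparison numbered 2, and 1 (Ndn) with no filter, with either rescaling to the same sum and with quantile normalization, and 0 to 3 leaving out 1 library. For COC, a pseudocount of 0.1 gave 1 member at least 2-fold apart between strains in place of 0, and a filter of 5 FPKM left 1 member above all 8 libraries in place of 2, since Peg3 falls under it. The cause of the other shifts was not tested.

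Correlations of deviations between same-numbered libraries were -0.0517 to 0.214. With groups of 2 or 3 libraries these values cannot settle whether the numbers pair them. With the replicate block, 3361 genes were called in the mural comparison and 0 between ages. It called 2 members, Ndn (adjusted p = 0.00888) and Grb10 (0.0328), and Plagl1 had 0.0625. Called results for single genes kept their direction, and Igf2r, Peg3 and Mest, which were not called, changed sign under some settings. Of the single-gene results, 1010 stayed on the same side of the threshold, 85 no longer passed and 10 newly passed. Depth is unknown and limits low values most: H19 and Igf2 lay under 0.6 FPKM throughout and were compared only with no filter. Without it, the mural comparison gave H19 a log2 fold change of 0.39 (adjusted p = 0.205) and Igf2 one of 0.31 (0.378), and the age comparison gave H19 one of 0.09 (1) and Igf2 one of 0.16 (0.868).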

Other observations

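Mir770, a microRNA gene hosted by Meg3, was listed at 48.7 FPKM in cumulus replicate 3 at 10 months, and at or near 0 in the other 9 libraries. Meg3 itself stood at 148 FPKM in that library, against 186 and 210 FPKM in replicates 1 and 2 at 10 months. Mir675, Mir335 and Mir483, hosted by H19, Mest and Igf2, were listed at 0 in all 10. Fragment counts are not given, so neither the 1 high value nor the listed 0s settle whether these short genes were expressed. Nap1l5, a paternally expressed gene, was among the most abundant imprinted genes, at 295 and 475.8 FPKM in the BDF1 and DBA/2 COC, 585 ± 36.0 FPKM in mural cells, and 262 ± 92.1 and 428 ± 32.6 FPKM in cumulus cells at 10 and 2 months (SD, n = 2, 3 and 3). It was chosen after its values were seen.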
